A study of Caenorhabditis elegans with 2 samples.

Results

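The vacuolar protein sorting genes of Caenorhabditis elegans were examined for LIN-35 chromatin immunoprecipitation and sequencing (ChIP-seq) peaks at their promoters. The members were chosen by their symbol: every protein-coding gene of the WBcel235 annotation whose symbol begins with vps- was taken, which gave 31 of 19985 genes. For each gene the promoter peak described was selected on its measured signal, as the highest peak of the pooled list with its summit in the promoter window, which reached from 1000 bp before any annotated transcript start to 300 bp after it. The group was also proposed with earlier results of these data known, so its counts and signals are descriptions beside the same values over all genes, and no test was made on them.

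Both samples were biological replicates of 1 group: whole young adult worms of mixed sex and of strain YL468, which carries the unc-119(ed3) mutation on chromosome III. Its integrated transgene vrIs93 carries a rescuing unc-119 and drives LIN-35:GFP:FLAG from the germ line promoter of mex-5, with the 3' UTR of lin-35. Every worm carried this transgene, and there was no second genotype, stage or treatment to compare. Chromatin of germ line and soma was mixed, and the labels name lin-35 as the antibody while describing an experiment on an eGFP fusion, so the epitope is not settled here.

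Vacuolar protein sorting (VPS) proteins were defined in yeast by mutants that missort vacuolar enzymes, and most act in fixed complexes on endosomes and lysosomes. ESCRT-I, ESCRT-II and ESCRT-III sort ubiquitinated membrane proteins into vesicles that bud into the endosome, and the AAA ATPase VPS-4 takes the ESCRT-III filament apart. The tethers HOPS and CORVET prepare endosomes and lysosomes for fusion, retromer returns receptors from endosomes to the Golgi, and GARP and EARP tether the vesicles that are returned. LIN-35 is the worm pocket protein, a relative of the retinoblastoma protein, which has no known DNA-binding domain of its own and acts at promoters with E2F-DP proteins and with LIN-54.

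The summits of 3 of the 5 members with a peak in the authors' thresholded list, those on chromosomes II, III and V, are shown first because the results turn on these peaks. Each is 30 bases of the plus strand of the RefSeq WBcel235 sequence (ce11 coordinates) around the pooled summit. The letters at vps-22 (III:4963087-4963116), vps-32.1 (II:6589182-6589211) and vps-60 (V:8606520-8606549) were as follows.
vps-22: aagtgcgccagcacgagaatagcgcaagca
vps-32.1: ttctgccataccatgaatcacaagggtttc
vps-60: tcgctttttttttctcttttttctctcctc
The vps-60 stretch held 29 pyrimidines (C or T) among its 30 bases, against 17 at vps-32.1 and 10 at vps-22.

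The strings sought were the E2F core (TTTCCCGC, TTTCGCGC, TTTGCCGC or TTTGGCGC) and a CHR-like string of the kind LIN-54 binds (TTCGAA or TTTGAA), on both strands within 100 bp of the summit. Among the thresholded members the CHR-like string lay near the summits of vps-22, vps-4 and vps-32.1. The one E2F core string among all members lay near the summit of vps-39, which encodes a HOPS subunit and whose window held the CHR-like string as well. Those of vps-22, vps-32.1 and vps-39 are printed on the plus strand, with the string each stretch is centred on in capitals: vps-22 at III:4963114-4963143 and III:4963130-4963159, where TTCAAA is the string read on the other strand, vps-32.1 at II:6589258-6589287 and vps-39 at V:14038937-14038966, where the E2F core is in capitals and a CHR-like ttcaaa stays in lower case.
vps-22, first: gcagccgcttctTTCAAAagcgcggatttt
vps-22, second: aaagcgcggattTTCAAAataaaaacaatt
vps-32.1: tcctcattttctTTTGAAttttcttttcaa
vps-39: ttgaacactttTTTCGCGCgcattcaaatt
The shares at these genes lay near those elsewhere, and no test compared them. The E2F core was in 1 of 24 windows at the members (4.17%), against 5.33% of the 7443 best promoter peaks of all genes, and 3.33% of 19984 windows of the same 201 bp length ending at a gene start. It was in 0 of the 5 windows at thresholded members, while 77 of all 550 thresholded peaks held it. Within 200 bp of the summit it was in 1 of these 5, against 17.3% of all thresholded peaks. The CHR-like string was in 15 of 24 windows (62.5%), against 57.4% of best peaks and 56.1% of gene-start windows. At thresholded members it was in 3 of 5 windows, against 59.1% of all 550 thresholded peaks.

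Of the 31 genes, 5 had a promoter peak in the authors' thresholded list (16.1%), where 2.77% of all protein-coding genes did. That list holds 550 peaks passing the authors' test of how well the replicates repeat each other (IDR, the irreproducible discovery rate), and its lowest signal was 24.8. The 5 genes were vps-22, vps-4, vps-32.1, vps-51 and vps-60. Of these, 4 encode ESCRT-II, ESCRT-III or the ATPase that acts on it, and vps-51 encodes a subunit of GARP and EARP. Any promoter peak in the pooled list, which holds 30000 lines and background as well as peaks, was present at 24 of the 31 genes (77.4%), against 42.9% of all genes. Among the 3000 highest pooled peaks, 13 members had one (41.9%), against 9.56% of all genes. The median signal of the 24 peaks was 12.4, and that of the best promoter peaks of all genes with one was 7.38. The signal is the authors' own value per peak, with no stated scale, and it ranks peaks within a list only.

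**Figure D1:**
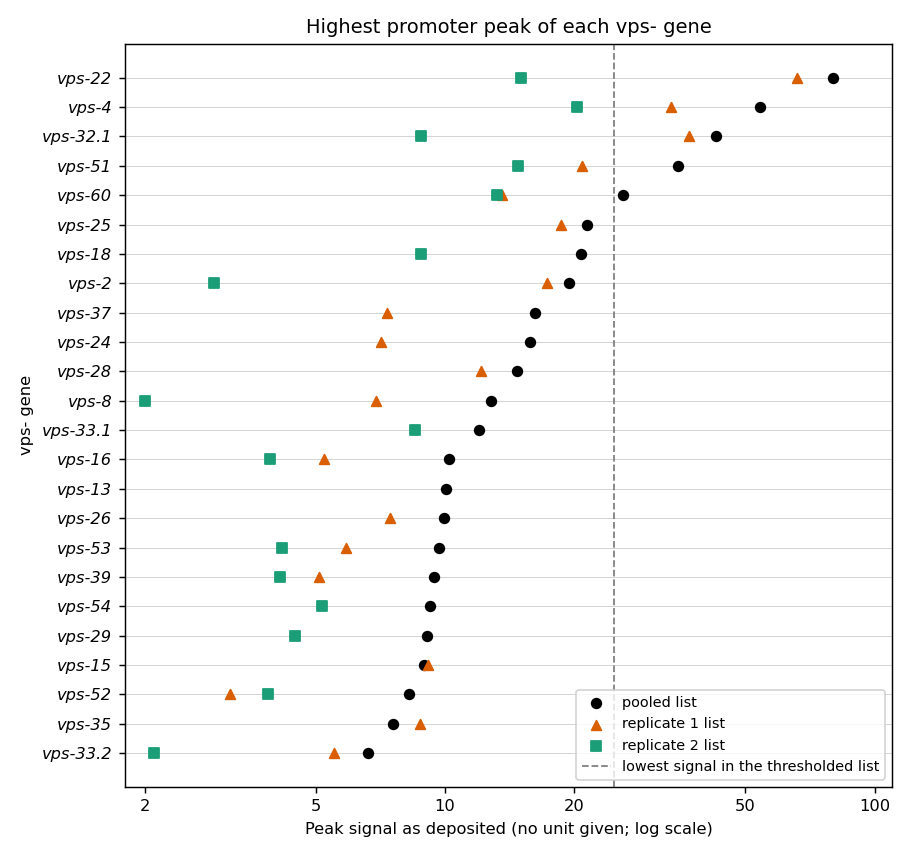
Signal of the highest promoter peak (log axis, no unit given) for the 24 vps- genes with one in the pooled list, with the overlapping peak of each replicate's own list where there is one; the dashed line is the lowest signal of the thresholded list. The pooled points of vps-22, vps-4, vps-32.1, vps-51 and vps-60 lie above the line, and vps-13 has no point for either replicate. The line is a value of the pooled signal and sets no threshold for the replicate points.

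The strongest member was vps-22, an ESCRT-II subunit. Its peak (III:4963038-4963193) had a signal of 79.8 in the pooled list, at rank 65 of 30000, with 65.999 in replicate 1 (rank 59) and 15.04 in replicate 2 (rank 184). Ranks within each list are given because the scale of the signal is not stated, so its size was not compared between replicates. The summit lay 609 bp upstream of the nearest vps-22 start but only 58 bp upstream of the start of C27F2.9, a gene on the same strand whose body overlaps the start of the longer vps-22 transcript. The gene had a second thresholded peak (III:4961508-4961863, signal 26.8, 13.1 in replicate 1 and 6.52 in replicate 2), with its summit in a coding exon of vps-22, 29 bp downstream of the start of the shorter transcript. That second peak lay in the promoter window of vps-22 and of no other protein-coding gene.

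The ATPase gene vps-4 followed, with a pooled signal of 54.1 (rank 120), 33.6 in replicate 1 (rank 174) and 20.3 in replicate 2 (rank 85). The peak (I:1067010-1067365) was intergenic, 289 bp upstream of the start of vps-4, and in no other protein-coding window. It was the highest of the members' best peaks in replicate 2, where vps-22 came next.

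The gene vps-32.1 encodes a core ESCRT-III filament subunit of the Snf7 family. Its peak (II:6589019-6589374) had a pooled signal of 42.8 (rank 183), with 37.003 in replicate 1 (rank 139) and 8.81 in replicate 2 (rank 757), so it was not among the 550 highest of replicate 2. It lay almost midway between divergent starts, 511 bp upstream of vps-32.1 and 542 bp upstream of icd-1, the beta subunit of the nascent polypeptide-associated complex. It was the only one of the 5 with annotated non-coding RNA genes (C56C10.14 and C56C10.15) within 300 bp of its summit. The peak cannot be given to either coding gene of the pair.

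The peak of vps-51 (I:5807347-5807702) also lay in the promoter window of lin-35 itself, and it cannot be given to either gene of the pair. Its pooled signal was 34.9 (rank 277), with 20.9 in replicate 1 (rank 410) and 14.8 in replicate 2 (rank 190). Its summit lay 184 bp upstream of the lin-35 start and 234 bp upstream of vps-51, which is transcribed the other way. A second, subthreshold peak in the vps-51 window (signal 17.5, rank 1162) had its summit in a coding exon of lin-35, whose coding sequence the transgene also carries. The part of the transgene in either peak was not tested. Without vps-51, 4 of the other 30 members had a thresholded peak, against 2.77% of all genes.

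The last of the 5 was vps-60, which encodes an accessory ESCRT-III subunit related to human CHMP5. Its peak (V:8606357-8606712) had a signal of 25.99 (rank 498), with 13.6 in replicate 1 (rank 1123) and 13.2 in replicate 2 (rank 247). It was intergenic, 407 bp upstream of the gene and in no other protein-coding window. Of the members' best peaks it was the nearest inside the threshold, the next being that of vps-51, which at rank 277 of 550 lay in the middle of the list. Those of vps-25 (21.5) and vps-18 (20.8) were the nearest outside it. All 5 thresholded peaks overlapped a peak in each replicate, with summits within 84 bp of the pooled one. Those of vps-22, vps-4 and vps-51 were among the 550 highest of both replicates.

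**Figure D2:**
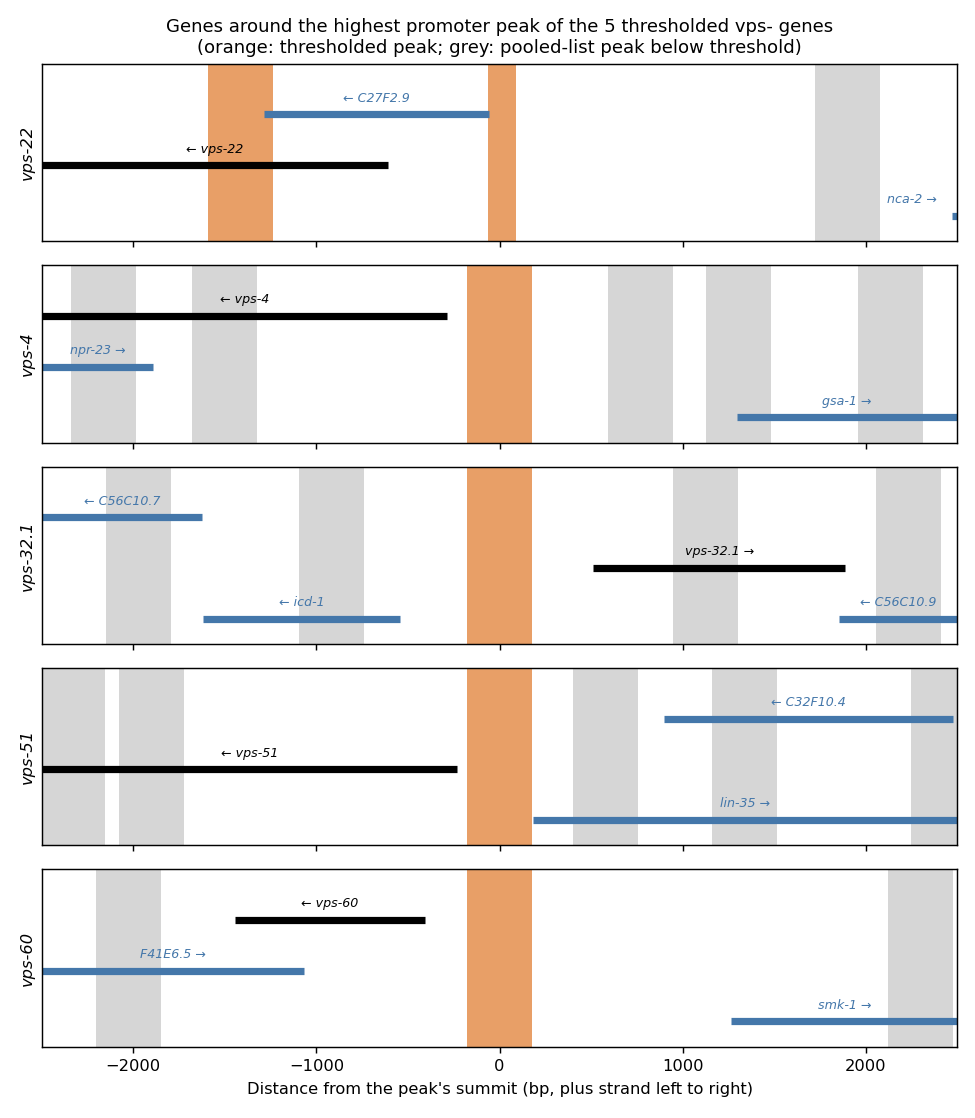
Protein-coding genes within 2500 bp of the highest promoter peak of the 5 thresholded vps- genes, plotted by distance from the summit in bp; orange bands are thresholded peaks, grey bands are pooled peaks below the threshold, black bars are the vps- gene and blue bars the others, with arrows for the direction of transcription. The vps-51 peak lies between that gene and lin-35, the vps-32.1 peak between that gene and icd-1, and the vps-22 peak at the start of C27F2.9.

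The ESCRT genes held the higher ranks among the members. The 11 with a vps- symbol had 4 thresholded peaks and 9 pooled promoter peaks, all 9 among the 2000 highest of the pooled list, with a median signal of 21.5. The other 20 members had 1 thresholded peak and 15 pooled ones, with a median of 9.69 and 2 among the 2000 highest. Over all protein-coding genes, 2.77% had a thresholded promoter peak, 42.9% a pooled one and 7.37% one among the 2000 highest. The thresholded and 2000-highest counts of the other 20 thus lay near the shares of all genes, and no test was made. The higher ranks did not extend to the 7 ESCRT genes without a vps- symbol. These had no thresholded peak, 1 among the 3000 highest and a median signal of 8.18 where there was a peak. In ESCRT-II, vps-25 had a signal of 21.5 (rank 752), 18.7 in replicate 1 and no overlapping peak in replicate 2. Its summit lay in its own 5' UTR, 35 bp downstream of the start and 348 bp upstream of the divergent uba-2, a subunit of the SUMO-activating enzyme. The third ESCRT-II gene, vps-36, had no summit in its window in any of the 3 lists; a pooled summit of signal 15.996 lay 1019 bp upstream, just outside it.

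ESCRT-I had pooled peaks at both of its genes with a vps- symbol. They were vps-37 (signal 16.2, 171 bp upstream; 7.34 in replicate 1) and vps-28 (14.7, 151 bp upstream; 12.1 in replicate 1), and neither best peak overlapped one in replicate 2. The replicate 1 summit matched to vps-37 lay 257 bp from the pooled one. In ESCRT-III, vps-2 had a signal of 19.4, with 17.2 in replicate 1 (rank 637) and 2.91 in replicate 2 (rank 10916). Its summit was nearer to the divergent tiar-2, an RNA-binding protein of the TIA-1 family (131 bp), than to vps-2 (338 bp). The peak of vps-24 (15.7; 7.10 in replicate 1, none in replicate 2) lay 212 bp from its start and 206 bp from that of eif-1, a translation initiation factor gene, and in the window of pigb-1 as well. The ESCRT-III gene vps-20 had no pooled peak in its window, which held a summit only in replicate 2 (4.39, rank 4774). Its nearest pooled summit (signal 9.44) lay 356 bp downstream of its start.

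**Figure D3:**
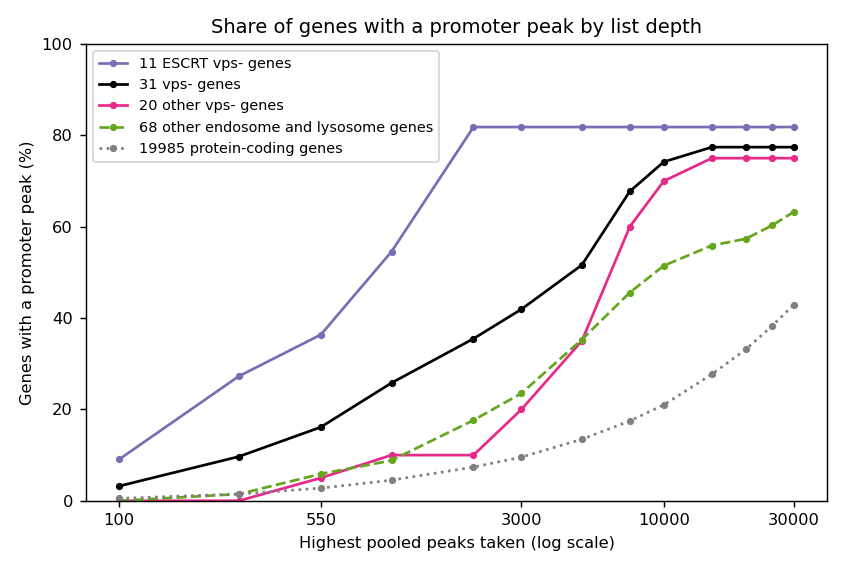
Share of genes with a promoter peak (percent, vertical axis) against the number of highest pooled peaks taken (log axis), for the 31 vps- genes, their 11 ESCRT members, the other 20, 68 other endosome and lysosome genes and all 19985 protein-coding genes. At 2000 peaks the ESCRT share is 81.8% and that of all genes 7.37%.

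Among the tethers, 6 of the 8 HOPS, CORVET and related genes had a pooled promoter peak, and none had a thresholded one. The highest was at vps-18, a core subunit shared by HOPS and CORVET, with a signal of 20.8 and no overlapping peak in replicate 1. The overlapping peak in replicate 2 (8.78, rank 766) had its summit 175 bp away. That replicate 2 peak also overlapped a second pooled peak at vps-18, of signal 13.3. The pooled summit of signal 20.8 was in the 5' UTR of the divergent T12C9.7, 49 bp upstream of the nearest T12C9.7 start and 677 bp from vps-18. The CORVET subunit gene vps-8 had a signal of 12.8, with 6.90 in replicate 1 and 2.01 in replicate 2. The values of vps-16, another core subunit, were 10.2, 5.23 and 3.93 in the pooled list and replicates 1 and 2. Those of vps-39, specific to HOPS, were 9.44, 5.10 and 4.13 in the same order. The replicate 1 peak of vps-39 had its summit 232 bp from the pooled one and also overlapped a second pooled peak (9.13). At vps-8 the replicate 1 summit lay 175 bp from the pooled one. The window of vps-11, also a core subunit, had no pooled summit, yet held a low one in each replicate (4.19 at rank 19380 and 2.07 at rank 17464). That of vps-41, specific to HOPS and on chromosome X, had none in any list.

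The Vps33 paralogs differed in rank within the pooled list. The gene vps-33.1, a Sec1/Munc18-type subunit of HOPS and CORVET, had a signal of 12.006 (rank 2923), none in replicate 1 and 8.52 in replicate 2 (rank 827), shared with the divergent sdz-1. Its paralog vps-33.2 was the lowest of the 24, at 6.61 (rank 13144), with 5.51 in replicate 1 and 2.11 in replicate 2, and its summit lay in an intron of epg-5. No test compared them, since each is a single peak without a stated error.

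The other complexes lay low in the list. All 3 retromer genes had a pooled peak, at signals of 9.98 (vps-26), 9.08 (vps-29) and 7.56 (vps-35), and none overlapped a peak in both replicates. The vps-26 summit fell in a coding exon of its upstream neighbour pigc-1. In GARP and EARP, apart from vps-51, the values were 9.69 for vps-53, 9.23 for vps-54 and 8.25 for vps-52, with no pooled summit at vps-50, the subunit specific to EARP. The vps-50 window held a summit only in replicate 2 (3.43, rank 8092). Of the lipid kinase complex, vps-15, the regulatory subunit, had 8.94 in a window shared with hmg-12, a chromatin protein gene, and vps-34, the kinase, had none in any list. The lipid transfer gene vps-13 had 10.1, at 935 bp upstream, with no overlapping peak in either replicate. The Sec1/Munc18 gene vps-45, on chromosome X, had a summit only in replicate 2 (4.70).

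Below the threshold, replicate support was partial. Of the 24 best peaks, 12 overlapped a peak in both replicates, or 38.7% of the 31 genes, where 13.3% of all genes had such a peak. A further 7 overlapped one in replicate 1 only, 4 in replicate 2 only and that of vps-13 in neither. Over the 8580 genes with a pooled promoter peak, 31.0% of best peaks overlapped both, 43.5% replicate 1 only, 12.8% replicate 2 only and 12.7% neither. Outside the thresholded peaks, 7 of 19 members had a peak in both lists, and no share over all genes is given for this part. The replicate 2 list stops at 18226 lines, against 30000 for replicate 1, so a missing peak there does not show that the signal was absent. The number of reads is unknown for both samples.

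Summits lay mostly upstream of the genes. Of the 24, 21 were upstream of the nearest own start (87.5%, against 80.1% for the best peaks of all genes), and the median offset was -233.5 bp (-261 bp for all genes). The 3 downstream were those of vps-25, vps-53 and vps-29. By annotation 16 summits were intergenic, 3 in a coding exon, 2 in a 5' UTR, 2 in a 3' UTR and 1 in an intron. For 9 of the 24 the peak was also in the window of another protein-coding gene (37.5%, against 27.8% for all genes), and in 18 the nearest start was the member's own. No share over all genes is given for the annotation classes or for the nearest start.

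**Figure D4:**
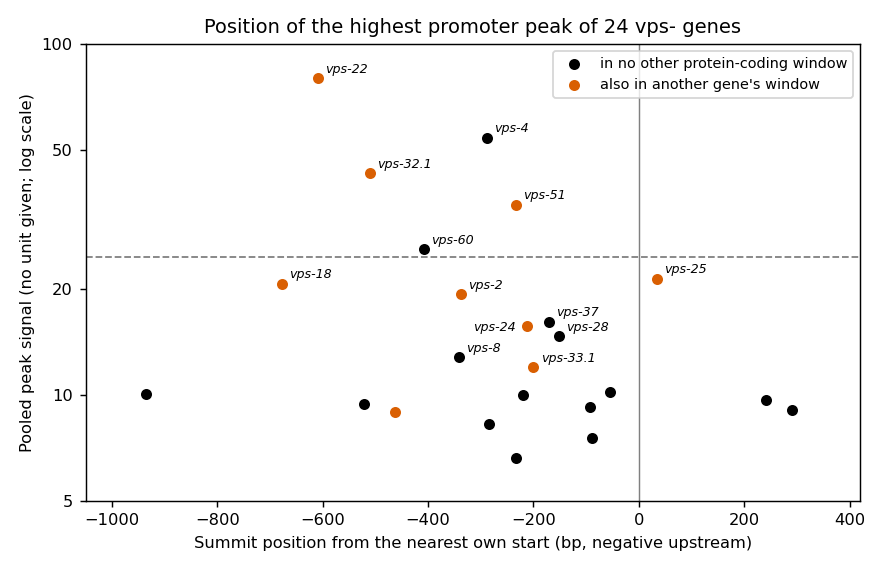
Position of the highest pooled promoter peak from the nearest start of its own gene (bp, negative upstream) against its signal (log axis) for 24 vps- genes; orange points also lie in the window of another protein-coding gene, and the dashed line is the lowest thresholded signal. Of the 8 highest, 6 are orange, and only vps-4 and vps-60 are alone on their peak.

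The members were also sorted by the arrangement of their upstream neighbour. In 14 members the upstream neighbour is on the opposite strand, and 9 of these had a promoter peak among the 3000 highest (64.3%), against 11.8% of the 9234 nuclear genes so arranged. In the 12 whose upstream neighbour ends within 500 bp on the same strand, as in worm operons, or overlaps the gene's start, 3 did, against 12.03% of 4105 genes. Of the remaining 5, 1 did (against 4.80% of 6629). These classes were chosen after values were seen. Annotation depth also moved with peaks: 37.1% of genes with 1 annotated start and 54.9% of those with 2 or 3 had a pooled promoter peak. Among the members, 12 of 17 with 1 start and 11 of 13 with 2 or 3 did. Of the 28 autosomal members 23 had a pooled peak, against 44.2% of autosomal genes, and of the 3 on X, vps-52 alone did (34.7% of X genes). The part of these features in the members' counts was not tested.

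Other genes of the pathway without a vps- symbol had a lower share of thresholded peaks than the members, a difference that was not tested. Over 7 lists holding 68 genes, 43 had a pooled promoter peak (63.2%, against 42.9% of all genes) and 4 a thresholded one (5.88%, against 2.77%). All 4 were shared: those of rab-18 (46.2), rab-7, the late endosome GTPase (27.3), and rab-5, the early endosome GTPase (24.8, the last of the 550), and that of spe-39, a partner of VPS33 proteins (34.1). Their neighbours on the peak were par-2 and kbp-4, mex-1 and W03C9.5, nmat-2, and spn-4, in that order. The 7 other ESCRT genes had no thresholded peak and 6 pooled ones, the highest at did-2, an ESCRT-III relative (24.1, rank 602; 9.72 in replicate 1 and 13.2 in replicate 2), and at stam-1 of ESCRT-0 (8.66). The 20 subunits of the V-ATPase, the proton pump that acidifies lysosomes, had no thresholded peak and 12 pooled ones, the highest at vha-18 (22.7, shared with pos-1) and vha-2 (15.3). Of 7 sorting nexin and retromer partner genes, 3 had a pooled peak, the highest at snx-3 (9.19) and snx-17 (8.73). Of 6 phosphoinositide genes 3 did, led by epg-8 (18.6) and bec-1 (12.4), and of 8 lysosome genes 5 did, led by scav-3 (18.2) and glo-4 (10.6). Of the 11 Rab genes and exchange factors 9 had a pooled peak, the highest below the threshold being sand-1 (12.8) and ccz-1 (11.7). Of the 9 tether partners, SM proteins and SNAREs 5 did, with syx-5 (18.1) and sly-1 (15.1) highest below the threshold. By list, the share with a pooled peak ran from 42.9% (sorting nexin and retromer partner genes) to 85.7% (other ESCRT genes). The lowest of these equalled the 42.9% of all genes, and the lists are small, of 6 to 20 genes.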

How the data were processed

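The data are LIN-35 ChIP-seq peak lists of 2 biological replicates. Per the deposited text notes, the authors made the replicate and pooled lists from alignments and a control, and derived the thresholded list from them. The sources used here do not give the aligner, caller or IDR cutoff, and the control was not analysed here. The deposited signal column was used as given; the −log10 q column of the deposited lists was not used for ranking. The 4 ce11 lists were set against Ensembl release 115 (WBcel235), after checking that peak ends lay within chromosome lengths. The ce10 lists were not used here, as no ce10 annotation was at hand. A replicate peak matched with 1 bp of overlap, and the one of highest signal was taken. At the members the matched replicate summits lay up to 257 bp from the pooled summit. The code recovered placed summits when tested on simulated data. Named genes were all members with a thresholded peak, a rank up to 5000 or no peak, those near the threshold, the highest of each complex, paralogs, and genes sharing a peak; other genes were those with a thresholded peak and up to 2 more per list. Members lower in the list, also named, were added after their values were seen. Members and lists were chosen with earlier results of these data known. The listed symbols vps-32.2 and let-512 matched no gene by name. Python 3.11.15, numpy 2.4.6, pandas 2.3.3 and matplotlib 3.10.9 were used.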

Additional observations from a re-analysis of the deposited data

How the results depend on the processing

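The count of 5 members with a thresholded peak (2.77% of all genes) depended on how deep the list was read. It was 3 (1.501% of all genes) when the thresholded list was restricted to its upper part, ending just above vps-51, 8 (4.51%) in the 1000 highest pooled peaks and 13 (9.56%) in the 3000 highest. Counting only peaks in no other protein-coding window left 3 (vps-4, vps-60 and vps-22 through its second peak). This choice was made after seeing the data, and no share over all genes is given for it. The count was 4 (2.27%) in a narrower window (500 bp before to 100 bp after a start), where vps-32.1 was lost. By nearest start it was 4 (1.91%, vps-51 lost), and in a wider window (2000 and 500 bp) 6 (3.44%), where vps-15 joined. From the 550 highest peaks of a single replicate it was 4 to 5: without replicate 1 (2.28%) the genes were vps-22, vps-4, vps-51 and vps-60, and without replicate 2 (2.71%) they were vps-22, vps-4, vps-25, vps-32.1 and vps-51. The count of 24 with a pooled peak ran from 20 in the narrower window (28.7% of all genes) to 28 in the wider one (57.2%). It was 23 without replicate 1 (29.9%) and 21 without replicate 2 (42.1%). The E2F core string was in 0 of 24 windows of 50 bp either side, against 3.04% of the 7443 best promoter peaks of all genes. At 200 bp it was in 2 of 24, against 8.38% of those peaks. At thresholded members it was in 0 of 5 at 100 bp, against 77 of all 550 thresholded peaks. At 200 bp it was in 1 of these 5, against 17.3%. By nearest start or the narrower window the signal of vps-22 was 26.8, that of its second peak. By nearest start that of vps-24 was 5.55, against 15.7, and vps-51, vps-18 and vps-2 lost their best peak to a neighbour. In the narrower window vps-18 had 13.3, against 20.8, and vps-32.1 and vps-13 had no summit, and in the wider one vps-26 had 17.5, against 9.98. Depth is unknown, and 1 bp of overlap was lenient: with summits within 100 bp, 9 rather than 12 members matched both replicates. No share over all genes is given at 100 bp.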
